A study of Mus musculus with 6 samples.

Results

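The histone genes of the adult mouse brain were taken from the RNA-seq counts as every gene whose name begins with Hist1h to Hist4h, H2af, H3f3 or H1f, with the names of pseudogenes marked -ps left out. The rule took 88 of the 53801 genes in the table. It used names only and no measured value. By name, 69 of them were replication-dependent histone genes of the Hist1 to Hist4 clusters and 18 were histone variant genes, 2 of which share the symbol H2afb1 under separate identifiers. GENCODE M21 types 4 of these genes as pseudogenes (Hist1h2aj and Hist1h2al of the clusters, and H2afy3 and H3f3c among the variants). They stayed in the counts since the rule goes by name, and held 1 read in all. The remaining one, H3f3aos, is an antisense RNA gene beside H3f3a and not a histone gene. Counts came from half-brains of 3 Bahd1-KO mice (genotype Bahd1-/-) and 3 Bahd1-WT mice (Bahd1+/+), all of strain C57BL/6 and about 70 weeks old by the labels. The methods describe the mice as males in which Bahd1 is inactivated in the whole body. The study also mentions deaths of null animals around birth, so that the mutant mice were survivors. BAHD1 is a heterochromatin factor found in a complex with histone deacetylases. No further treatment was given to either genotype.

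Histones package DNA into nucleosomes built from H2A, H2B, H3 and H4, with the linker histone H1 on the DNA between them. Replication-dependent genes stand in clusters, have many near-identical copies and are transcribed in S phase, and their mRNAs end in a short stem-loop in place of a poly(A) tail. Variant genes such as H3f3a and H3f3b (H3.3), H2afz and H2afv (H2A.Z), H2afx (H2A.X), H2afy and H2afy2 (macroH2A) and H1f0 (H1.0) stand alone, give polyadenylated mRNA and supply histones outside S phase, which makes them the main source of new histone in neurons that no longer divide.

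The libraries held 42297150 to 93557948 counts, and Bahd1 itself had 844 to 1383 counts in Bahd1-WT brains and 0 to 14 in Bahd1-KO brains, which checks the labels. Bahd1-KO replicate 2 stood apart, with the highest values of GC-rich genes, and values without it are given beside the results that it moves most. Markers of neurons, astrocytes, oligodendrocytes and microglia were all detected, 5 of 5 in each list. Their summed levels overlapped between genotypes, and that of oligodendrocytes was 4887 to 5694 CPM (reads scaled to the size of the library) in Bahd1-WT brains and 5104, 7898 and 6768 CPM in Bahd1-KO brains. Markers of other tissues also differed between libraries. The summed level of 6 lung markers was 2.35 to 110 CPM in Bahd1-WT brains, highest in replicate 1, and 0.506 to 1.42 CPM in Bahd1-KO brains. That of 4 choroid plexus markers was 260 to 352 against 437 to 1057 CPM, where 1 of the 4 had all Bahd1-KO mice higher and 1 had all lower. That of 5 red cell markers was 10.8 to 15.9 against 15.1 to 92.6 CPM, and of 3 olfactory neuron markers 18.4 to 35.2 against 42.1 to 90.0 CPM. That of 4 pituitary markers was 17.1 CPM in Bahd1-WT replicate 1 and 38.3 CPM in Bahd1-KO replicate 3, and at most 0.62 CPM in the other mice. None of the markers in these lists was at 0 in all mice, and their part in the histone values was not tested. In bulk tissue, fewer cells of a type and less RNA per cell cannot be told apart.

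The libraries were selected for poly(A) tails, so the stem-loops at the 3' ends of histone mRNAs are shown first. They were searched in the GENCODE M21 transcripts as GGNNNNTTNNNNNNCC with a fully paired stem of 6 bases and a loop of 4, on the transcript strand. The motif was found in 45 members, namely 44 replication-dependent genes and the variant H2afx, and in 0.486% of 21807 other protein-coding genes. Stem bases are in capitals and loop bases in lower case. The most frequent form was carried by 26 genes of the H1, H2A, H2B and H3 types, and H4 genes had forms of their own.
Hist1h1c, Hist1h2ac, Hist3h2a, Hist3h2ba and 22 others: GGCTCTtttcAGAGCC
Hist1h1t, Hist1h2bb, Hist1h2bk, Hist1h3c, Hist1h3e and Hist1h3f: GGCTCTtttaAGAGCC
Hist2h2ac: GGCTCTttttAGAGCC
Hist1h4c, Hist1h4d, Hist1h4h, Hist4h4 and 3 other H4 genes: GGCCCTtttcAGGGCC
Hist1h4i and Hist2h4: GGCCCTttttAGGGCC
Hist1h4b and Hist1h4j: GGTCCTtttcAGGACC
H2afx: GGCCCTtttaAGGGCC
The first 2 loop bases are set by the search. In the forms found, the H4 genes and H2afx differed from the rest in the stem.

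Over the 6 mice the 18 variant genes held 235011 reads and the 69 replication-dependent genes 36817, so that 86.5% of these reads lay on variants. Of the replication-dependent genes, 19 had no read in any mouse, 24 had fewer than the 10 reads set as the minimum for testing, and 26 were tested. Of the variants, 10 were tested, 3 had fewer reads and 5 had none. Here a count of 0 allows up to 3 reads per library, which is 0.0315 to 0.069 CPM, and covers counting error only.

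The annotated 3' end went along with detection. Among the 22 replication-dependent genes whose transcript runs at least 100 bases past the stem-loop, 17 reached the minimum of 10 reads, and the median gene had 74 reads. Among the 22 genes that end sooner after it, 4 did, with a median of 2 reads. Among the 25 whose annotated transcripts hold no such motif, 5 did, and the median was 1 read. Some of these transcripts are short, such as those of Hist1h4k with 312 bases and Hist1h2bl with 381. An absent motif thus describes the annotated transcript and not the mRNA of the gene. The long group holds Hist1h2ac with 2010 bases after the stem-loop, Hist3h2a with 1643, Hist1h2be with 1861, Hist2h4 with 1257 and Hist1h1c with 840. The limit of 100 bases was set after the values were seen. Hist1h2bc and Hist2h2be, the H2B genes with the most reads (12803 and 5049), have no match to the motif in their annotated transcript, and that of Hist1h2bc has 2 exons.

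The same groups differ in how much of their sequence is shared with other genes. In the long group the median gene shared 23.3% of its 50-base windows with another gene's transcripts, against 59.9% in the short group and 71.5% in the group with no motif. The stated counting options include none that would count a read aligned to several places. Of 23 replication-dependent genes with at least 70% of windows shared, 15 had no read at all, among them Hist2h2aa2 and Hist2h3c1, which share 100% of theirs. Of 22 genes with under 35% shared, 2 had none. Exon length also differed, at 614 to 7425 bases in the long group and 391 to 706 bases in the short group. The reads compared here were not scaled to length, and its part was not tested. Lack of transcription, lack of a poly(A) tail and loss of reads to a copy cannot be told apart here, and levels of such copies are uncertain.

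**Figure D1:**
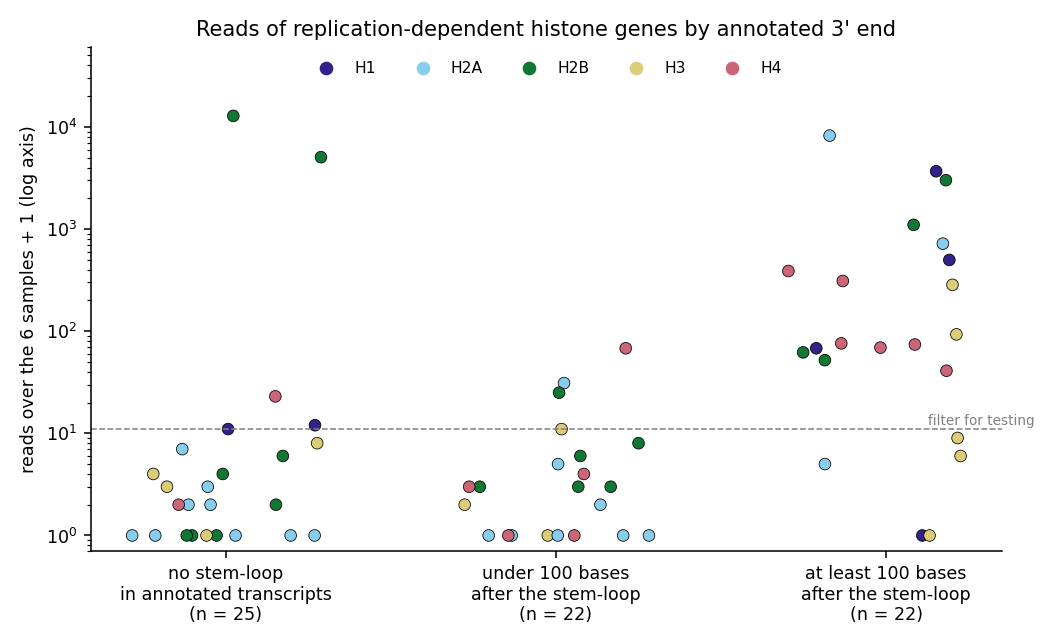
Reads over all 6 mice, plus 1 and on a log axis, of the 69 replication-dependent histone genes, grouped by whether an annotated transcript holds the stem-loop and how far it runs past it. Each point is a gene, colors give the histone type, points are spread sideways only to be seen, and the dashed line is the minimum for testing. Most genes above the line lie in the right-hand group, with Hist1h2bc and Hist2h2be high in the left-hand group.

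Per kilobase of exon, H3f3b had the highest level of all members, at 87.7 CPM per kb as the mean over 6 mice. H1f0, the linker variant of cells that have stopped dividing, followed at 48.5 CPM per kb. Hist1h2bc, an H2B gene of the Hist1 cluster, came next at 25.9 CPM per kb and the highest of the replication-dependent genes. H2afv (17.1 CPM per kb) and H2afz (15.3 CPM per kb), which both encode H2A.Z, followed. Their order was not the same in every mouse, since the log2 ratio of H2afz to H2afv in CPM ran from -0.43 to 0.34. H3f3a, Hist3h2a, H2afy2 and H2afy lay between 8.31 and 11.1 CPM per kb. H3 mRNA was thus nearly all of the H3.3 kind in these libraries, with 126437 reads on the H3.3 genes and 411 on the 12 replication-dependent H3 genes, and no H4 gene exceeded 1.33 CPM per kb. The 5 most abundant replication-dependent genes (Hist1h2bc, Hist3h2a, Hist2h2be, Hist1h1c and Hist1h2be) made up 91.2% ± 0.442 (SD, n = 3) of the CPM of that class in Bahd1-WT brains and 87.5% ± 3.72 (n = 3) in Bahd1-KO brains.

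**Figure D2:**
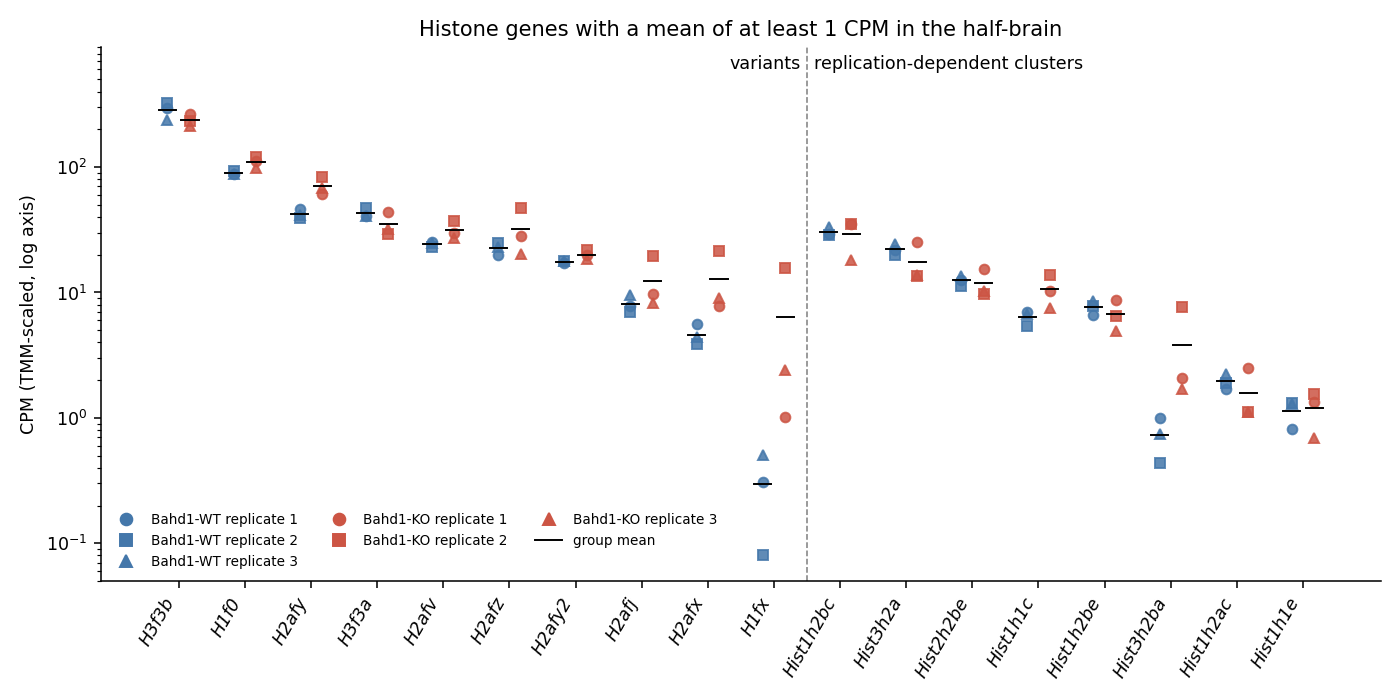
CPM on a log axis of the 18 histone genes with a mean of at least 1 CPM, variants on the left and replication-dependent genes on the right, each ordered by its mean. Points are mice, with shapes for the replicate numbers, and bars are group means. Bahd1-KO points all lie above Bahd1-WT points for H1f0, H2afy, H2afv, H2afy2, H2afx, H1fx, Hist1h1c and Hist3h2ba, and Bahd1-KO replicate 2 (square) is the highest point of each of these 8.

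H2A and H2B genes of the clusters often start back to back. Within 400 bases, 13 such pairs were found, each of an H2A and an H2B gene, with 176 to 306 bases between their starts. In 9 of them both partners had under 10 reads. In the pair with the most reads, Hist1h2bc had 12803 reads and Hist1h2ac 718, which is 36.4 times as much per kilobase. In the Hist2 pair, Hist2h2be had 5049 reads and Hist2h2ac 4. Genes that share the stretch between their starts were thus far apart in measured level, and their 3' ends differ as given above, with 57 bases after the stem-loop in Hist2h2ac. The log2 ratio of Hist1h2bc to Hist1h2ac was 4.10, 3.91 and 3.89 in Bahd1-WT brains and 3.82, 4.96 and 4.04 in Bahd1-KO brains, so that the genotypes overlapped and Bahd1-KO replicate 2 was the highest.

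**Figure D3:**
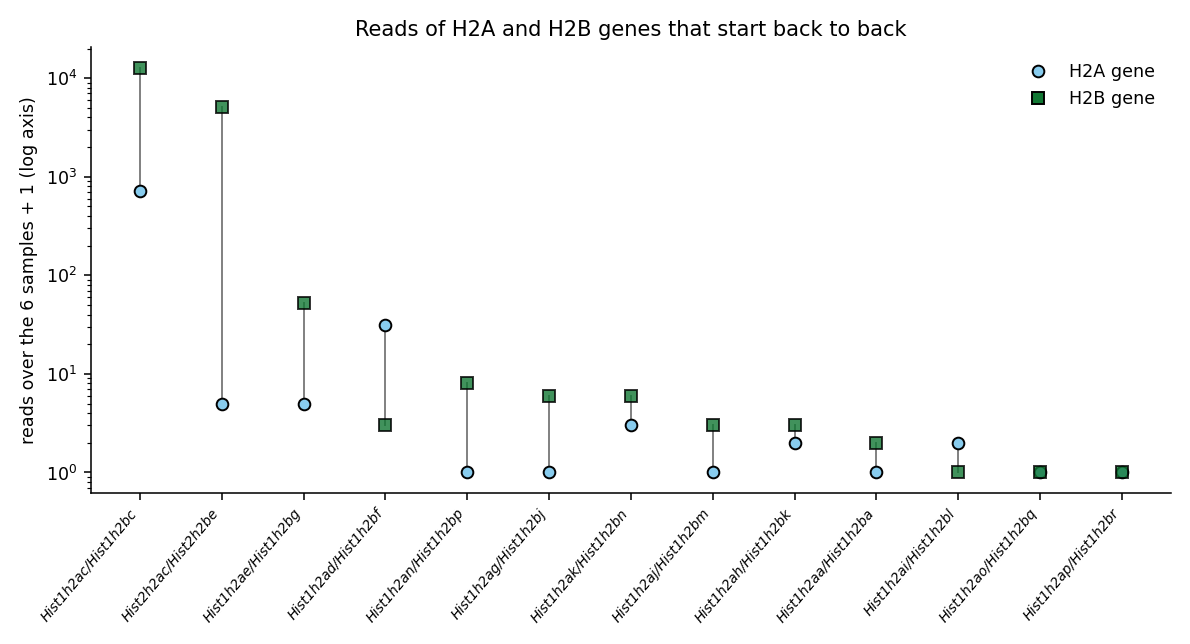
Reads over all 6 mice, plus 1 and on a log axis, of the H2A (circle) and H2B (square) gene of each of the 13 pairs that start back to back, ordered by the higher partner. The lines join partners. The widest gap is in Hist2h2ac/Hist2h2be, with 4 and 5049 reads.

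The stretches between the starts of these pairs and the sequence before the start of Hist3h2ba are shown because they hold the motifs known from histone promoters. Motifs are in capitals and were searched on both strands, the CCAAT box by its name, the TATA box as TATAAA, the octamer of H2A and H2B promoters as ATTTGCAT and the GC box as GGGCGG, none of which can overlap a different one by more than 2 bases. Sequences are from RefSeq for GRCm38.p6 and run toward the H2A gene in the pairs.
Hist1h2ac/Hist1h2bc, minus strand of chr13:23683949-23684198: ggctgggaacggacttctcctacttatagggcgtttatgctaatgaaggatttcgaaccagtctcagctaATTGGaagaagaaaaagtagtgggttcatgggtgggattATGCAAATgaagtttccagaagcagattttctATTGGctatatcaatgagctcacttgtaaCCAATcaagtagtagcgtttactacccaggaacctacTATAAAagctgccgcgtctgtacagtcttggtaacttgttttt
Hist2h2ac/Hist2h2be, minus strand of chr3:96220881-96221118: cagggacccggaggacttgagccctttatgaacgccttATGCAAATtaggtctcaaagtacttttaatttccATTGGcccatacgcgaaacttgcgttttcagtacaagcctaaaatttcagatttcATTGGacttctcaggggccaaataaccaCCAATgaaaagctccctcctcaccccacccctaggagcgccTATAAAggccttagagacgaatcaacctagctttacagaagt
Hist3h2ba, plus strand of chr11:58948661-58948919: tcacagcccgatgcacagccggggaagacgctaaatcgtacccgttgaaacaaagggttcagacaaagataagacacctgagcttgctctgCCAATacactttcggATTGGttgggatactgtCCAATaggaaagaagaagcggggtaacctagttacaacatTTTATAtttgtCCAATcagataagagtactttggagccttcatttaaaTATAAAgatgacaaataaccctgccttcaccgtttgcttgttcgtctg
Both pairs hold CCAAT on each strand, 1 octamer and 1 TATAAA on the side of the H2A gene, and Hist3h2ba holds CCAAT several times and no octamer. RefSeq windows around the start were matched to 62 of the 69 replication-dependent genes. CCAAT was in all 50 windows of the H1, H2A, H2B and H3 types (6, 18, 16 and 10), in 3 of 12 H4 windows and in 37.4% of 32851 windows of all genes. TATAAA was in 35 of the 62, against 13.6% of all windows. The octamer was in 7 of 18 H2A and 6 of 16 H2B windows, in no H1, H3 or H4 window and in 1.73% of all windows. The GC box was in 23 of 62 windows, near the 35.7% of all, and in 9 of the 12 H4 windows. Of 16 windows matched to variants, 10 held CCAAT, 1 TATAAA and 1 the octamer. Windows of back-to-back genes overlap and are not independent, those of Hist1h1d and H3f3b lie 1770 and 3458 bases from the GENCODE start, and a match is a description of letters and not of binding. No window was matched to Hist1h2bc and Hist2h2be, whose stretches are shown above from the windows of their H2A partners.

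The comparison of genotypes asked whether histone genes differed between Bahd1-KO and Bahd1-WT brains. By edgeR's quasi-likelihood test over 23975 genes, no tested histone gene had a Benjamini-Hochberg adjusted p under 0.05, where 2 genes in all (0.00834%) did. DESeq2 called 6 of the 29 histone genes to which it gave an adjusted p (20.7%), all higher in Bahd1-KO, where 17.7% of all genes were called higher. Those called by DESeq2 were Hist1h1c, Hist3h2ba, Hist1h4h, H1fx, H2afx and H2afy. At an adjusted p under 0.1 in edgeR, 5 of the 36 tested histone genes (13.9%) were higher in Bahd1-KO, where 14.7% of all genes were, and 0 were lower, where 4.77% were. The 5 were H2afy, H2afx, H1fx, Hist3h2ba and Hist1h4h. At an unadjusted p under 0.05 there were 7, all higher (19.4% of the histone genes, against 19.9% of all genes higher and 12% lower). Every Bahd1-KO mouse lay above every Bahd1-WT mouse for 8 histone genes (22.2%, against 20.6% of all genes) and below for 1, Hist1h4c (2.78%, against 19.3% of all genes). The shares of histone genes that were higher thus lay near those of all genes. With the GC and length offset, which takes out the trend of each library with the GC content and length of its genes, no member and 0.0209% of all genes passed 0.05. At 0.1 with the offset, H2afy, H2afv and Hist3h2ba were higher (8.33% of the histone genes, against 7.08% of all). Without Bahd1-KO replicate 2, 4 members were higher at 0.1, where 8.94% of all genes were. At 0.05, counting the antisense gene among those tested, 4 members were called with total counts (10.8%, against 9.4% of all genes), 6 when genes with 1 count were kept (9.38%, against 11%) and 4 in DESeq2 with the offset (17.4%, against 15.4%), all of them higher. The 4 in DESeq2 with the offset were H2afy, H2afv, H1fx and Hist3h2ba. Without Bahd1-KO replicate 1, 5 of the 34 histone genes still tested were higher at 0.05, where 19.8% of all genes were, and 2, Hist3h2a and Hist1h2ac, were lower, where 10.3% were.

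The median log2 fold change (Bahd1-KO over Bahd1-WT) was 0.43 over the 10 variants, 0.066 over the 26 replication-dependent genes and -0.061 over all genes tested. The order of the classes turned when genes with 1 count were kept, with 0.37 over the variants and 0.64 over the replication-dependent genes. With the offset the medians were 0.25, -0.010 and 0.089. Without Bahd1-KO replicate 2 they were 0.18 over the variants, -0.17 over the 21 replication-dependent genes still tested and -0.052 over all genes. Of all genes tested, 46.6% had a positive fold change and 20.6% had every Bahd1-KO mouse above every Bahd1-WT mouse. Of the 10 variants, 8 had a positive fold change and 6 had all Bahd1-KO mice higher, H1f0, H1fx, H2afy, H2afv, H2afy2 and H2afx. Of the 26 replication-dependent genes, 14 had a positive fold change (53.8%), and Hist1h1c and Hist3h2ba had all Bahd1-KO mice higher (7.69%). The 14 include Hist1h4h and Hist1h4k, which were tested only through reads of Bahd1-KO replicate 2. All 10 variants had a mean of at least 1 CPM, but only 8 replication-dependent genes did. Those 8 had a median of -0.069, and 0.15 with the offset. Of them, 3 had a positive fold change and 2 had all Bahd1-KO mice higher (25%).

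H2afy encodes macroH2A1, a large H2A variant with an added macro domain that is known from heterochromatin and the inactive X chromosome. It lies on chr13:56073619-56136361 of GRCm38, on the minus strand, and its transcripts have up to 9 exons. Its level was 46.7, 39.3 and 41.5 CPM in Bahd1-WT replicates 1 to 3 and 61.5, 82.9 and 67.7 CPM in Bahd1-KO replicates 1 to 3. Every Bahd1-KO mouse was above every Bahd1-WT mouse. The means were 42.5 ± 3.81 and 70.7 ± 11 CPM (SD, n = 3 each), and the log2 fold change was 0.73 ± 0.17 (SE), with an edgeR adjusted p of 0.0634. With the offset it was 0.74 (adjusted p = 0.0737), without Bahd1-KO replicate 2 it was 0.60 (adjusted p = 0.0567), and with both changes 0.60 (adjusted p = 0.0918). H2afy was the only member under 0.1 in all 4 of these edgeR fits. It was not under 0.1 with the replicate number as a block (adjusted p = 0.151), nor when a Bahd1-WT mouse or Bahd1-KO replicate 3 was left out (edgeR adjusted p = 0.11 to 0.243), where no other member was either. Of all genes, 0.0375% were under 0.1 with the block, and 0% to 0.0213% when such a mouse was left out. For H2afy, DESeq2 gave an adjusted p of 0.00614, and 0.000172 with the offset.

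H2afy2 encodes macroH2A2, the other macroH2A. It had 17.3, 17.8 and 17.8 CPM in Bahd1-WT brains and 19.97, 21.7 and 18.4 CPM in Bahd1-KO brains. These groups did not overlap either, but the log2 fold change was 0.18 ± 0.17 (adjusted p = 0.461), and -0.29 with the offset. The log2 ratio of H2afy to H2afy2 within each mouse was 1.43, 1.14 and 1.22 in Bahd1-WT and 1.62, 1.93 and 1.88 in Bahd1-KO. The ratio was higher in every Bahd1-KO mouse, a comparison chosen after the values were seen, and the transcripts differ in GC content (50.9% in H2afy and 54.3% in H2afy2).

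The genes of H2A.Z, a variant found at promoters of active genes, were H2afv and H2afz. H2afv had 25.3, 23.1 and 24.9 CPM in Bahd1-WT brains and 29.7, 37.1 and 27.3 CPM in Bahd1-KO brains, with no overlap. Its log2 fold change was 0.36 ± 0.18 (edgeR adjusted p = 0.191), and 0.63 ± 0.18 with the offset (adjusted p = 0.0928). Without Bahd1-KO replicate 2 it was 0.22, and 0.40 with both changes (adjusted p = 0.215). H2afz had 20.1 to 24.9 CPM in Bahd1-WT brains, and 28.1, 47.0 and 20.3 CPM in Bahd1-KO brains, where replicate 3 lay inside the Bahd1-WT range. Its log2 fold change of 0.49 ± 0.29 (edgeR adjusted p = 0.265) became 0.088 without Bahd1-KO replicate 2. With the offset it was 0.69 (adjusted p = 0.174), with 20.1 to 22.5 CPM in Bahd1-WT and 23.5 to 53.2 CPM in Bahd1-KO mice. With both changes it was 0.21 (adjusted p = 0.453).

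H2afx encodes H2A.X, which is phosphorylated at DNA breaks, and its gene on chr9:44334694-44336077 is the variant with a stem-loop, followed by 822 bases. It had 5.57, 3.89 and 4.39 CPM in Bahd1-WT brains and 7.77, 21.4 and 9.07 CPM in Bahd1-KO brains. All Bahd1-KO mice were higher, and replicate 2 was far above the others. The log2 fold change was 1.47 ± 0.39 (edgeR adjusted p = 0.0643) and 0.87 without Bahd1-KO replicate 2 (adjusted p = 0.0611). With the offset the values were 7.72, 7.36 and 7.30 against 7.64, 6.68 and 6.77 CPM, and the log2 fold change was -0.089 ± 0.14 (adjusted p = 0.755). The transcript has 62.3% GC, and 173 of the 13430 genes with a mean above 2 CPM have as much or more. H2afj, an H2A variant gene near Hist4h4 on chromosome 6, had 6.93 to 9.57 CPM in Bahd1-WT brains and 9.68, 19.5 and 8.17 CPM in Bahd1-KO brains. Its log2 fold change of 0.62 ± 0.33 (adjusted p = 0.221) was 0.14 without Bahd1-KO replicate 2 and 0.028 with the offset.

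Of the linker histones, H1f0 (H1.0) had 87.6, 92.2 and 87.8 CPM in Bahd1-WT brains and 112, 120 and 98.6 CPM in Bahd1-KO brains. The groups did not overlap, and the log2 fold change was 0.30 ± 0.15 (edgeR adjusted p = 0.181) and 0.13 with the offset. H1fx (H1.10) on chr6:87980421-87981637 had 28, 5 and 37 counts in Bahd1-WT brains and 44, 1490 and 139 in Bahd1-KO brains. This is 0.306, 0.081 and 0.505 CPM against 1.01, 15.6 and 2.40 CPM, and most of the difference in means lies in Bahd1-KO replicate 2. The log2 fold change was 4.4 ± 1.05 (adjusted p = 0.0634), 2.51 without that replicate (adjusted p = 0.0556), 1.56 ± 0.48 with the offset (adjusted p = 0.103) and 1.18 with both changes (adjusted p = 0.307). At 71.3% GC, H1fx is matched or exceeded by 2 of those 13430 genes, itself included, so the offset there rests on few genes.

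Hist1h1c (H1.2) was the most abundant linker gene of the clusters. It had 7.0, 5.39 and 6.79 CPM in Bahd1-WT brains and 10.3, 13.8 and 7.58 CPM in Bahd1-KO brains. All Bahd1-KO mice were higher, with a log2 fold change of 0.73 ± 0.26 (edgeR adjusted p = 0.104), which was 0.48 without Bahd1-KO replicate 2 and 0.083 with the offset. Hist1h1e (H1.4) had 0.809 to 1.31 CPM against 0.691 to 1.56 CPM and a log2 fold change of 0.081 ± 0.35. Its annotated gene overlaps that of Hist1h2be on the same strand, so reads there could be split or lost. Hist1h1d (H1.3), with 67 reads in all, had 0.0874 to 0.314 CPM in Bahd1-WT and 0.0518 to 0.322 CPM in Bahd1-KO mice.

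H3.3 replaces H3 at transcribed genes and, in neurons, over much of the genome with age, and its genes were the least GC-rich of the abundant members. H3f3b had 294, 323 and 239 CPM in Bahd1-WT brains and 265, 233 and 212 CPM in Bahd1-KO brains. The groups overlapped, the means were 285 ± 43.0 and 236 ± 26.6 CPM, and the log2 fold change was -0.27 ± 0.17 (edgeR adjusted p = 0.289). H3f3a had 40.4, 46.8 and 41.0 against 44.1, 29.1 and 31.8 CPM, and a log2 fold change of -0.29 ± 0.20 (adjusted p = 0.323). With the offset the direction turned for both, to 0.26 (adjusted p = 0.353) and 0.23 (adjusted p = 0.214). The log2 ratio of H3f3b to H3f3a was 2.54 to 2.86 in Bahd1-WT brains and 2.59 to 3.00 in Bahd1-KO brains, so the balance of the genes overlapped between genotypes. The antisense gene H3f3aos had 1.13 to 1.41 CPM in Bahd1-WT and 0.935 to 1.06 CPM in Bahd1-KO mice, all of them lower (log2 fold change -0.35 ± 0.23, adjusted p = 0.309). It overlaps H3f3a on the other strand. Counting is stated as strand-specific, while the sources name different library kits, so reads of the shared stretch cannot be assigned with certainty.

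Of the Hist3 cluster on chromosome 11, the naming rule took Hist3h2ba and Hist3h2a. Hist3h2ba, an H2B gene at chr11:58948920-58949533, had 92, 27 and 55 counts in Bahd1-WT brains and 90, 734 and 99 in Bahd1-KO brains. At the depth of each library this is 1.01, 0.437 and 0.750 CPM against 2.07, 7.71 and 1.71 CPM, with every Bahd1-KO mouse higher. The log2 fold change was 2.39 ± 0.60 (edgeR adjusted p = 0.0634), 1.35 without Bahd1-KO replicate 2 (adjusted p = 0.0616), 1.15 ± 0.34 with the offset (adjusted p = 0.0974) and 0.73 with both changes (adjusted p = 0.287). Its size was thus smaller without that replicate and with the offset, and its transcript has 57.2% GC. Hist3h2a, an H2A gene on the same strand at chr11:58954685-58956830, had 22.0, 19.99 and 24.4 CPM in Bahd1-WT brains and 25.3, 13.5 and 13.8 CPM in Bahd1-KO brains (log2 fold change -0.34 ± 0.27, edgeR adjusted p = 0.394). Without Bahd1-KO replicate 1, the mouse with the highest level, it was -0.67 (adjusted p = 0.0264), and with the offset over all mice -0.036. The log2 ratio of Hist3h2ba to Hist3h2a was -5.51 to -4.45 in Bahd1-WT brains and -3.61, -0.81 and -3.01 in Bahd1-KO brains.

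The abundant H2A and H2B genes of the other clusters did not separate the genotypes. Hist1h2bc had 29.5, 28.8 and 33.2 CPM in Bahd1-WT brains and 34.96, 34.9 and 18.2 CPM in Bahd1-KO brains (log2 fold change -0.055 ± 0.26, edgeR adjusted p = 0.899). Hist2h2be had 11.3 to 13.6 CPM in Bahd1-WT and 9.75 to 15.5 CPM in Bahd1-KO mice (log2 fold change -0.083 ± 0.23, adjusted p = 0.823). Hist1h2be had 6.61 to 8.56 against 4.97 to 8.73 CPM (log2 fold change -0.19 ± 0.25, adjusted p = 0.623). Bahd1-KO replicate 1 held the highest level of all 6 mice for each of these genes. The same mouse was the highest for Hist1h2ac, which had 1.72 to 2.24 CPM in Bahd1-WT and 1.105 to 2.48 CPM in Bahd1-KO mice (log2 fold change -0.33 ± 0.35, adjusted p = 0.526). Without that mouse Hist1h2ac was at -0.78 (edgeR adjusted p = 0.0497). Of Hist1h2ad, 3 to 6 counts were found in each Bahd1-WT mouse and 4 to 9 in each Bahd1-KO mouse.

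H3 and H4 genes of the clusters had few reads, 411 over the 12 H3 genes and 1047 over the 13 H4 genes. Hist2h3c2 had 0.615 to 0.900 CPM in Bahd1-WT and 0.345 to 0.988 CPM in Bahd1-KO mice, Hist1h3d 17 to 19 against 7 to 20 counts, and Hist1h3b 0 to 2 against 1 to 3 counts. Hist1h4i had 0.664 to 1.10 CPM against 0.674 to 1.75 CPM, Hist2h4 0.534 to 0.832 against 0.483 to 0.881 CPM, and Hist1h4j 11 to 16 against 5 to 21 counts. None of these had an edgeR adjusted p under 0.4. Hist2h3c2, with 60.2% GC, went from a log2 fold change of -0.23 to -1.41 with the offset (edgeR adjusted p = 0.157, and 0.0606 in DESeq2 with the offset). Hist1h4c had 14, 17 and 16 counts in Bahd1-WT brains and 2, 14 and 5 in Bahd1-KO brains, the histone gene whose Bahd1-KO levels were all lower (0.153 to 0.275 against 0.046 to 0.147 CPM, log2 fold change -1.08 ± 0.49, adjusted p = 0.168). Most reads of Hist1h4h and Hist1h4k came from Bahd1-KO replicate 2. Hist1h4h had 2, 2 and 0 counts in Bahd1-WT brains and 1, 59 and 3 in Bahd1-KO brains (log2 fold change 3.72 ± 1.27, adjusted p = 0.0962), and without Bahd1-KO replicate 2 it fell under the minimum for testing. Hist1h4k had 0 counts in every Bahd1-WT mouse and 1, 21 and 0 in Bahd1-KO brains.

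Germline histones were absent or nearly so. Hist1h1t, Hist1h2aa, Hist1h2al, H1fnt, H2afb2 and H2afb3 had no read in any mouse, and H1foo, Hist1h2ba and 1 of the 2 H2afb1 genes had 1 read each. In each library this stays at or under the 3 reads that a count of 0 allows.

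The fold changes of the members followed the GC content of their transcripts. Of 11 tested members with at least 55% GC, 10 were higher in Bahd1-KO, with a median log2 fold change of 0.85. Of 10 members with 50 to under 55%, 9 were higher (median 0.24), and of 15 with under 50%, 3 were (median -0.19). With the offset these medians were -0.089, 0.0098 and 0.23. Without Bahd1-KO replicate 2 they were 0.48, 0.12 and -0.19, over the 7, 9 and 15 members still tested. Hist1h4h and Hist1h4k, among the 11, reached the minimum for testing only through reads of that replicate. Their direction thus depends on the filter. Over the 36 members, Spearman's rho between GC content and log2 fold change was 0.71 (0.87 over the 18 with a mean of at least 1 CPM), and -0.15 with the offset. It was 0.74 over all genes tested. The points share the same 6 libraries and are no replicates. The offset takes out whatever moves with GC content and length, so the lower rho with it follows from its construction, and the part of GC content in the values of single members was not tested.

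**Figure D4:**
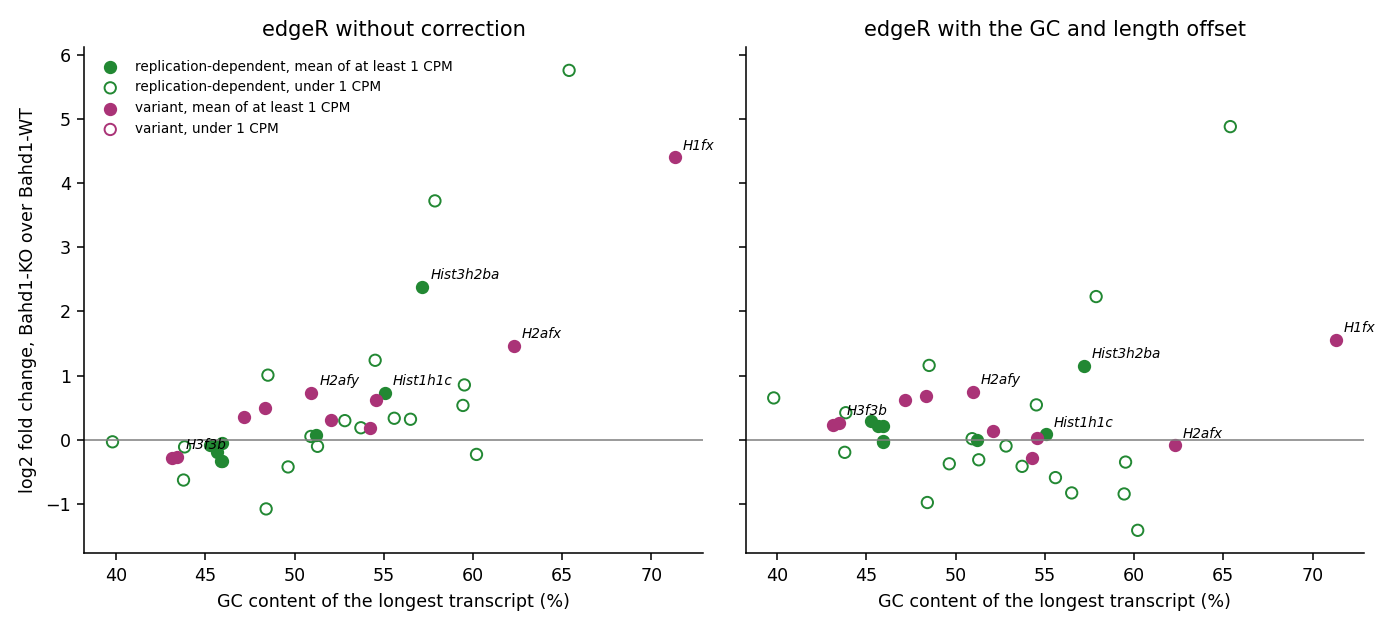
Log2 fold change of the 36 tested histone genes against the GC content of their longest transcript, without (left) and with (right) the GC and length offset. Filled points have a mean of at least 1 CPM, green are replication-dependent genes and purple variants. On the left H1fx, H2afx and Hist3h2ba lie high at the GC-rich end, and on the right H2afx lies at -0.089 while H2afy keeps 0.74.

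Summed over all members, the replication-dependent genes had 86.8 ± 7.70 CPM in Bahd1-WT brains and 87.0 ± 22.9 CPM in Bahd1-KO brains (SD, n = 3 each). The Bahd1-KO values were 105, 94.3 and 61.3 CPM, on both sides of the Bahd1-WT range of 80.3 to 95.3 CPM. The variants summed to 537 ± 45.0 and 567 ± 66.3 CPM, and to a Bahd1-KO mean of 537 CPM without replicate 2. Behind this total, the H2A variants summed to 116 to 123 CPM in Bahd1-WT and 151 to 230 CPM in Bahd1-KO mice, and the H1 variants to 87.9 to 92.3 against 101 to 135 CPM. The H3 variants summed to 280 to 370 CPM against 244 to 309 CPM, and H3f3b made up 52.9% ± 3.67 of variant CPM in Bahd1-WT and 41.9% ± 4.38 in Bahd1-KO mice. With the offset this share, taken over the 10 tested variants, was 44.5% to 50.9% in Bahd1-WT and 44.6% to 49.1% in Bahd1-KO mice, so that it overlapped. The log2 ratio of replication-dependent to variant CPM was -2.85 to -2.36 in Bahd1-WT and -3.02 to -2.46 in Bahd1-KO mice. The balance between the classes thus overlapped between genotypes.

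**Figure D5:**
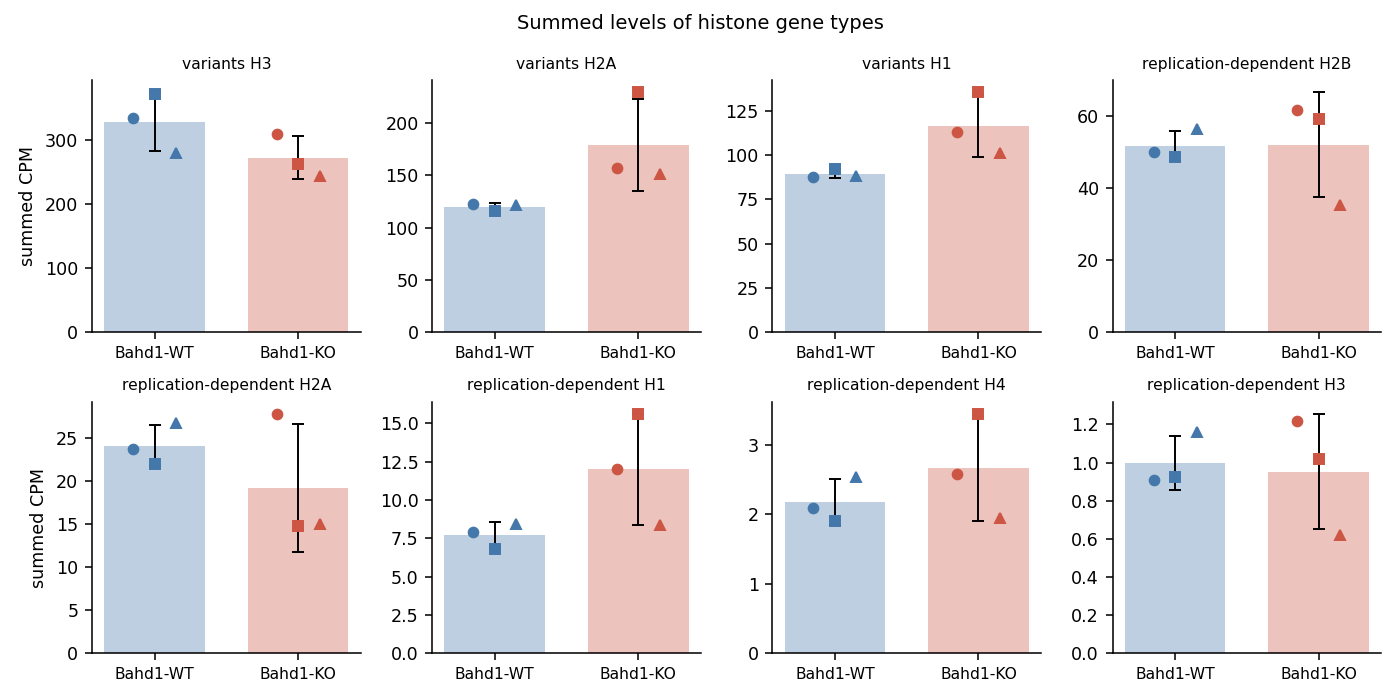
Summed CPM of each histone type, for variants and replication-dependent genes, by genotype. Points are mice, bars start at 0 and show means, and error bars are SD (n = 3). H2A and H1 variants have all Bahd1-KO mice above the Bahd1-WT mice, and the other types overlap.

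Genes that make, fold or use histone mRNA and protein were read from 3 lists. Of 20 genes of histone mRNA 3' processing and cluster transcription, all were tested, none had an edgeR adjusted p under 0.05, and at 0.1 there were 4 higher and 4 lower in Bahd1-KO (20% in each direction, against 14.7% and 4.77% of all genes). With the offset 1 of the 20 was higher, where 7.08% of all genes were, and 0 were lower. The median log2 fold change was -0.30, and 0.18 with the offset. Those with the highest levels were Cstf2, a cleavage factor (162 to 172 CPM in Bahd1-WT and 104 to 137 CPM in Bahd1-KO mice, log2 fold change -0.43 ± 0.16, adjusted p = 0.107), the uridylyltransferase Zcchc6 (76.8 to 83.3 against 50.7 to 67.8 CPM, -0.38 ± 0.17), and the cleavage factors Cpsf2 (75.3 to 81.9 against 50.7 to 73.8 CPM, -0.31 ± 0.17) and Cpsf3 (60.3 to 68.2 against 56.6 to 63.9 CPM, -0.074 ± 0.15). With the offset all 4 were higher, with log2 fold changes of 0.064 to 0.19.

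Of 29 histone chaperones and factors of variant exchange, all were tested and none passed 0.05, with 3 higher (10.3%, against 14.7% of all genes) and 2 lower (6.9%, against 4.77%) at 0.1. With the offset 2 of the 29 were higher, where 7.08% of all genes were, and 0 were lower. The median log2 fold change was -0.13, and 0.12 with the offset. The 4 highest levels were those of Atrx, described last, and of the nucleosome assembly proteins Nap1l5 (745 to 938 CPM in Bahd1-WT and 574 to 838 CPM in Bahd1-KO mice, log2 fold change -0.27 ± 0.19), Nap1l1 (290 to 357 against 174 to 336 CPM, -0.43 ± 0.24) and Nap1l2 (177 to 221 against 125 to 206 CPM, -0.26 ± 0.20). Atrx, which deposits H3.3 at heterochromatin, had 286 to 334 against 127 to 213 CPM, a log2 fold change of -0.79 ± 0.21 (edgeR adjusted p = 0.065) and of -0.0042 with the offset.

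Of 23 genes of S phase and cell division, when replication-dependent histone genes are transcribed, all were tested and none passed 0.05, with 1 higher (4.35%, against 14.7% of all genes) and 3 lower (13%, against 4.77%) at 0.1. With the offset none was under 0.1 in edgeR, where 8.59% of all genes were. The median log2 fold change was -0.18, and -0.048 with the offset. Pcna had 23.8 to 28.3 CPM in Bahd1-WT and 17.4 to 26.4 CPM in Bahd1-KO mice, Mcm4 19.8 to 21.2 against 14.3 to 19.1 CPM, Ccne1 13.2 to 17.5 against 13.9 to 15.6 CPM, and Ccne2 16.7 to 23.5 against 6.67 to 13.5 CPM. The last had a log2 fold change of -0.98 ± 0.28 (edgeR adjusted p = 0.068), and -0.22 with the offset. The other 2 lower at 0.1, named after their values were seen, were the proliferation marker Mki67 and the cyclin gene Ccna2. Mki67 had 2.72, 1.83 and 6.39 CPM in Bahd1-WT replicates 1 to 3, with replicate 3 far above the others, against 0.735 to 1.45 CPM. Its log2 fold change was -1.76 ± 0.48 (edgeR adjusted p = 0.065), and -1.42 with the offset (adjusted p = 0.101). Ccna2 had 2.57 to 3.30 against 1.10 to 2.02 CPM (log2 fold change -1.05 ± 0.30, edgeR adjusted p = 0.067), and -0.71 with the offset (adjusted p = 0.101). The gene higher at 0.1, named in the same way, was E2f1, a transcription factor of S phase entry (log2 fold change 0.91 ± 0.25, edgeR adjusted p = 0.066), at -0.097 with the offset. Without Bahd1-KO replicate 2 none of these 3 was under 0.1 (edgeR adjusted p = 0.107 for Mki67 and 0.108 for Ccna2 and E2f1), while Ccne2 was at -0.76 (adjusted p = 0.0768).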

How the data were processed

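Total RNA from half-brains of 3 Bahd1-KO and 3 Bahd1-WT mice was poly(A)-selected and sequenced. Per the submitters' processing notes, the authors trimmed reads with cutadapt 1.11, aligned them to GRCm38 with STAR 2.5.0a and counted reads on exons per gene with featureCounts 1.4.6-p3. The supplementary methods name a further aligner as well. The authors deposited whole-number counts for 53801 genes, without normalization or filter.

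From these, genes with at least 10 counts over the 6 samples (23975) were tested with edgeR 4.0.16 (TMM scaling, quasi-likelihood test, genotype as the only factor, Benjamini-Hochberg adjustment) in R 4.3.3. CPM use TMM-scaled library sizes. The GC and length offset was a spline of log2 CPM on GC content (5 degrees of freedom) and log length (3), fitted in each library to 13283 expressed genes. Alternatives were DESeq2 1.42.0, other scalings and filters, leaving out each sample, the offset and a replicate block, and, added after the data were seen, the offset without Bahd1-KO replicate 2. Nothing in the labels says that the mice came from separate litters, so p-values measure the spread between these samples.

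Positions, GC content and transcripts came from GENCODE M21. Members were described with values in every sample, or as ranges, when among the 3 most abundant of their class, under an adjusted p of 0.1 with the offset, among the 3 largest changes in each direction at 1 CPM or more, or of the germline, and related genes when among the 4 most abundant of their list. H2afj, H2afy2, Hist1h4c, Hist1h4h and Hist1h4k were added after their values were seen. The members and lists were chosen with earlier results of these data known. The scripts were tested on simulated counts.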

Additional observations from a re-analysis of the deposited data

How the results depend on the processing

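No histone gene had an edgeR adjusted p under 0.05. There were 4 with total counts (9.4% of all genes called) and 6 with DESeq2 with and without its normal prior (21.3%). There were 6 when genes with 1 count were kept (11%) and 4 in DESeq2 with the GC and length offset (15.4%). When 1 sample was left out there were 0 to 7. The 7 were without Bahd1-KO replicate 1 (20%, against 30% of all genes), and Hist3h2a and Hist1h2ac among them were lower. With any other sample left out there were 0, where 0% to 0.0174% of all genes were called. Under 0.1 there were 5 (13.5% with the antisense gene among those tested, against 19.5% of all genes). With the offset there were 3 (8.11%, against 8.59%). With the offset and without Bahd1-KO replicate 2 there was 1 (3.12%, against 0.868%). When 1 sample was left out there were 0 to 10. The 10 were without Bahd1-KO replicate 1 (28.6%, against 41.2% of all genes), 3 of them lower. There were 0 without Bahd1-WT replicate 1, 2 or 3 or Bahd1-KO replicate 3, where 0% to 0.0213% of all genes were under 0.1. Members without overlap numbered 10 (27.0%, the antisense gene included, against 39.8% of all genes), and 11 to 17 when 1 sample was left out (29.7% to 48.6%, against 44.0% to 61.4% of all genes). With the offset they numbered 12 (32.4%, against 27.9%), and also 12 without Bahd1-KO replicate 2 as well (37.5%, against 33.3%). The median log2 fold change of replication-dependent genes was 0.64 with genes of 1 count kept, above the 0.37 of variants, and -0.17 to 0.31 with 1 sample left out. That of variants was 0.14 with the offset and without Bahd1-KO replicate 2 and 0.18 to 0.61 with 1 sample left out. The log2 ratio of summed variant CPM went from 0.077 to 0.30 with the offset. The cause of these moves was not tested.

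Same-numbered mice did not deviate together (correlations of -0.64, -0.66 and -0.14), so the numbers were not taken to pair the samples. With the replicate block, alone or with the offset, 0 members were under 0.1, where 0.0375% and 0.0542% of all genes were. The medians were 0.037 and 0.38 without the offset and -0.020 and 0.24 with it, and Hist1h1d was at 0.057 with the block alone.

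Of 504 log2 fold changes of 29 named members under other settings, 402 kept direction and side of the threshold, 32 newly passed 0.05 and 70 changed sign. With the offset, H2afx was at -0.089, H2afy2 -0.29, H3f3a 0.23, H3f3b 0.26, Hist1h1d 0.65, Hist1h2ad -0.84, Hist1h2bc 0.22, Hist1h2be 0.21, Hist1h3b -0.35, Hist1h4i -0.097 and Hist2h2be 0.29. In DESeq2 with the offset, the values were H2afx -0.072, H2afy2 -0.27, H3f3a 0.25, H3f3b 0.28, Hist1h1d 0.68, Hist1h2ad -0.79, Hist1h2bc 0.24, Hist1h2be 0.23, Hist1h4i -0.068 and Hist2h2be 0.31. With the replicate block and the offset, they were H2afx -0.088, H2afy2 -0.29, H3f3a 0.23, H3f3b 0.25, Hist1h1d 0.75, Hist1h1e -0.032, Hist1h2ad -0.80, Hist1h2bc 0.17, Hist1h2be 0.19, Hist1h4i -0.17, Hist2h2be 0.30 and Hist2h4 -0.0072. With the offset and without Bahd1-KO replicate 2, they were H2afj -0.22, H2afx -0.049, H2afy2 -0.21, H3f3a 0.16, H3f3b 0.073, Hist1h1d 0.49, Hist1h1e -0.24, Hist1h2ac 0.051, Hist1h2ad -0.38, Hist1h2be 0.064, Hist2h2be 0.27, Hist2h4 -0.014 and Hist3h2a 0.0047. Hist1h1d was at 0.011 and 0.016 in DESeq2 with and without the prior, and at 0.038 with total counts, where Hist1h2bc was at 0.019. With upper-quartile factors Hist1h1e was at -0.079 and Hist2h4 at -0.095. With 1 sample left out, Hist1h1d ranged from -0.70 to 0.80, Hist1h1e from -0.19 to 0.36, Hist1h2bc from -0.21 to 0.20, Hist1h4i from -0.19 to 0.54, Hist1h4j from -0.46 to 0.090, Hist2h2be from -0.30 to 0.032, Hist2h3c2 from -0.63 to 0.068 and Hist2h4 from -0.11 to 0.29. H2afy stayed positive under all 18 settings (0.59 to 0.86, adjusted p = 0.000172 to 0.243, under 0.05 in 6). So did H1fx and Hist3h2ba, each under 0.05 in 6, and H1f0, H2afv, H2afz and Hist1h1c, under 0.05 in 0 to 2. At this depth 3 of 12 H3 and 8 of 13 H4 genes of the clusters reached the reads needed for testing.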

Other observations

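Histone rows outside the naming rule gave few reads. Cenpa, the centromeric H3 variant, had 89 to 103 counts in Bahd1-WT brains and 65 to 126 in Bahd1-KO brains, with a log2 fold change of 0.13 ± 0.23 (edgeR adjusted p = 0.703). Of 17 H2al genes, which encode short H2A forms of the testis, 16 had no read in any mouse, and H2al1o had 8 reads over all of them. H2bfm had none. Among the pseudogenes, Hist3h2bb-ps, which belongs to the Hist3 cluster, had 2, 3 and 8 counts in Bahd1-WT brains and 3, 15 and 5 in Bahd1-KO brains (log2 fold change 0.88 ± 0.67, adjusted p = 0.377).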
